A study of Mus musculus with 384 samples.

Results

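The ether-a-go-go-related (ERG) potassium channels are encoded by the 3 genes Kcnh2, Kcnh6 and Kcnh7, which were chosen by name from 32813 measured genes. Their levels were followed in fluorescent cells sorted singly from 4 retinas of 2 mice at postnatal day 17 and sequenced with Smart-seq2, a plate method that copies whole transcripts. Both mice carried the allele Kcng4tm1.1(cre)Jrs, which places the recombinase at the Kcng4 locus, and the reporter Thy1-stop-YFP Line#1, in which the Thy1 promoter drives yellow fluorescent protein once the recombinase has acted. By this design a cell fluoresces only if it had used both control regions. How purely the sort caught such cells was not tested. The retinas are named 1Ra and 1la in mouse 1 and 2Ra and 2la in mouse 2, with suffixes that the labels leave unexplained. Each retina filled its own 96 wells, so retina and plate cannot be told apart. With no treatment in the design, the comparisons below are between kinds of sorted cell, between the retinas of a mouse and between the mice.

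ERG channels open on depolarisation, inactivate quickly and recover through a slowly closing open state, which gives a potassium current that holds back firing and shapes repolarisation. Kcnh2 (ERG1) carries the rapid delayed rectifier current of the heart. Kcnh6 (ERG2) and Kcnh7 (ERG3) are known mainly from neurons, and subunits of the family can assemble with each other. Bipolar cells, which carry the signal of photoreceptors to the inner retina, respond with graded voltages that potassium channels of several families shape.

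Of 384 wells, 383 had values, and 321 cells had at least 3000 genes with an expected count of 1 or more. Cells with exactly 1 of the markers Vsx1, Ddit4l and Sox6 at 20 TPM or more formed 3 groups. TPM is transcript abundance per length, scaled to the same total in every cell, so levels of different genes may be set side by side. The Vsx1-only group held 60 cells, with 18 in 1Ra, 16 in 1la, 12 in 2Ra and 14 in 2la. The Ddit4l-only group held 59, with 19 in 1Ra, 10 in 1la, 10 in 2Ra and 20 in 2la. The Sox6-only group held 151, with 30 in 1Ra, 33 in 1la, 42 in 2Ra and 46 in 2la. Vsx1 and Sox6 encode transcription factors, and Ddit4l a stress-induced inhibitor of mTOR signalling. The 3 channel genes did not enter this grouping, but they were picked with earlier results on these cells known, and Kcnh6 had already been seen to differ between kinds of cell. Its differences between the groups are therefore given without a test. The mouse is the replicate (n = 2), and cells are not.

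The median total count per cell was 1072603 in Vsx1-only, 1091485 in Ddit4l-only and 1067453 in Sox6-only cells, and single cells of the 3 groups ranged from 203657 to 1945582. Retina medians over the groups lay between 748007 in 1Ra and 1286601 in 1la. As a check of the tissue, Otx2, a factor of photoreceptors and bipolar cells, reached 1 TPM in 100% of Vsx1-only, 100% of Ddit4l-only and 98.0% of Sox6-only cells. Of 12 bipolar markers, 10 did so in most Vsx1-only, 8 in most Ddit4l-only and 10 in most Sox6-only cells. The summed level of 8 rod photoreceptor markers had a median of 313 TPM in Vsx1-only, 240 TPM in Ddit4l-only and 148 TPM in Sox6-only cells. It reached 1000 TPM in 19 Vsx1-only, 13 Ddit4l-only and 44 Sox6-only cells, and 4, 2 and 4 of the 8 markers were at 1 TPM in most cells of these groups. Of 10 ganglion cell markers, 0 were at 1 TPM in most Vsx1-only cells, 0 in most Ddit4l-only and 1 in most Sox6-only cells. That marker, Thy1, whose promoter drives the reporter, reached 1 TPM in 25% of Vsx1-only, 28.8% of Ddit4l-only and 54.3% of Sox6-only cells, and the factor Pou4f2 in none. No pair of the 321 cells held identical counts, and no doublet caller was run. A further 18 cells had 2 of the markers and 33 had none, and these stayed out of the groups.

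In the mouse genome build GRCm38, Kcnh2 lies on chromosome 5 from 24319589 to 24351604 on the minus strand, and the antisense gene Gm15589 overlaps it. Kcnh6 lies on chromosome 11 from 106008124 to 106034549 on the plus strand with no other annotated gene over it. Kcnh7 spans chromosome 2 from 62693414 to 63184287 on the minus strand, and 3 annotated genes, Gca, Gm13569 and Gm22020, lie within its bounds or across them. The method does not mark strand, so reads from overlapping exons cannot be told apart. At a mean of 0, 2.80 and 2.77 TPM in Vsx1-only, Ddit4l-only and Sox6-only cells, Gm15589 was far below Kcnh2, and it reached 1 TPM in 1 Ddit4l-only and 1 Sox6-only cell. In the 17 Ddit4l-only cells with 10 TPM of Kcnh7 or more, Gca reached 1 TPM in 1 and Gm13569 in 5 cells, with medians of 0 TPM.

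The sequences before the start sites are shown for Kcnh6 and Kcnh7, each the channel gene with the largest fold change in some comparison of groups. They are RefSeq sequences of build GRCm38.p6, written 5′ to 3′ on the gene's strand, and capitals mark the only match to 4 motifs searched on both strands. The Kcnh6 stretch covers chr11:106007898-106008123 on the plus strand and stops where the annotated gene begins. The Kcnh7 stretch covers chr2:63184288-63184537 on the minus strand.
Kcnh6: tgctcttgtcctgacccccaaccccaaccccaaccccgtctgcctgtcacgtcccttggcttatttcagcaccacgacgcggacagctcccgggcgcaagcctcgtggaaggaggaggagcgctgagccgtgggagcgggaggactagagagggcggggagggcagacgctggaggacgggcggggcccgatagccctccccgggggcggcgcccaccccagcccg
Kcnh7: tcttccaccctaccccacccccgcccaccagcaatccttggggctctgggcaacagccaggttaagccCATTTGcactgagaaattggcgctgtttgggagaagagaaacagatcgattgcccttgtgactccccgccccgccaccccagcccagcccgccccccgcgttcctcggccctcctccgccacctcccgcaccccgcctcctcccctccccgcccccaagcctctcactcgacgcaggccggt
The match in Kcnh7 is an E-box (CANNTG) whose first base lies at -182 from the start. This motif was present in 66.04% of 27025 promoters of the same 250 bases. The core of Crx and Otx2 sites, TAATCC, was present in 6.38% of them. An extended nuclear receptor half-site, AAGGTCA, was present in 4.05%. The core of Sox sites, AACAAT, was present in 9.65%. None of these had a match in the windows of the channel genes. Both windows were rich in G and C over 250 bases, at 70.8% for Kcnh6 and 67.6% for Kcnh7. The median over all promoters was 52% and the 90th percentile 69.2%. For Kcnh6 this window is longer than the stretch of 226 bases shown. The RefSeq window of Kcnh2 lies inside its annotated gene and is not shown.

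Kcnh6 was by far the most abundant ERG transcript in Ddit4l-only and Sox6-only cells and was near 0 in most Vsx1-only cells. In Vsx1-only cells its level was 0 TPM at the lowest, 0.585 at the median and 693 at the highest. Ddit4l-only cells had a lowest level of 49.7, a median of 1566 and a highest of 4499 TPM. In Sox6-only cells the lowest was 161, the median 1688 and the highest 6076 TPM. Single cells of the Vsx1-only group thus reached into the low end of the other groups, but the bulk of the groups lay far apart. A level of 100 TPM or more was found in 10 of 60 Vsx1-only cells (16.7%, 95% Clopper-Pearson interval 8.29% to 28.5%), in 58 of 59 Ddit4l-only cells (98.3%, 90.9% to 99.96%) and in all 151 Sox6-only cells (100%, lower bound 97.6%). These intervals cover counting error only.

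The same picture held in every retina. Median Kcnh6 in Vsx1-only cells was 0 TPM in 1Ra, 0.47 in 1la, 0.66 in 2Ra and 4.10 in 2la. In Ddit4l-only cells it was 1846 TPM in 1Ra, 1970 in 1la, 921 in 2Ra and 1056 in 2la. Sox6-only cells had 2298 TPM in 1Ra, 2033 in 1la, 1075 in 2Ra and 1733 in 2la. The 4 medians of the Vsx1-only group lay below all 8 of the other groups. Ddit4l-only medians lay below the Sox6-only median of the same retina in all 4 retinas, though the ranges of the groups overlapped.

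**Figure D1:**
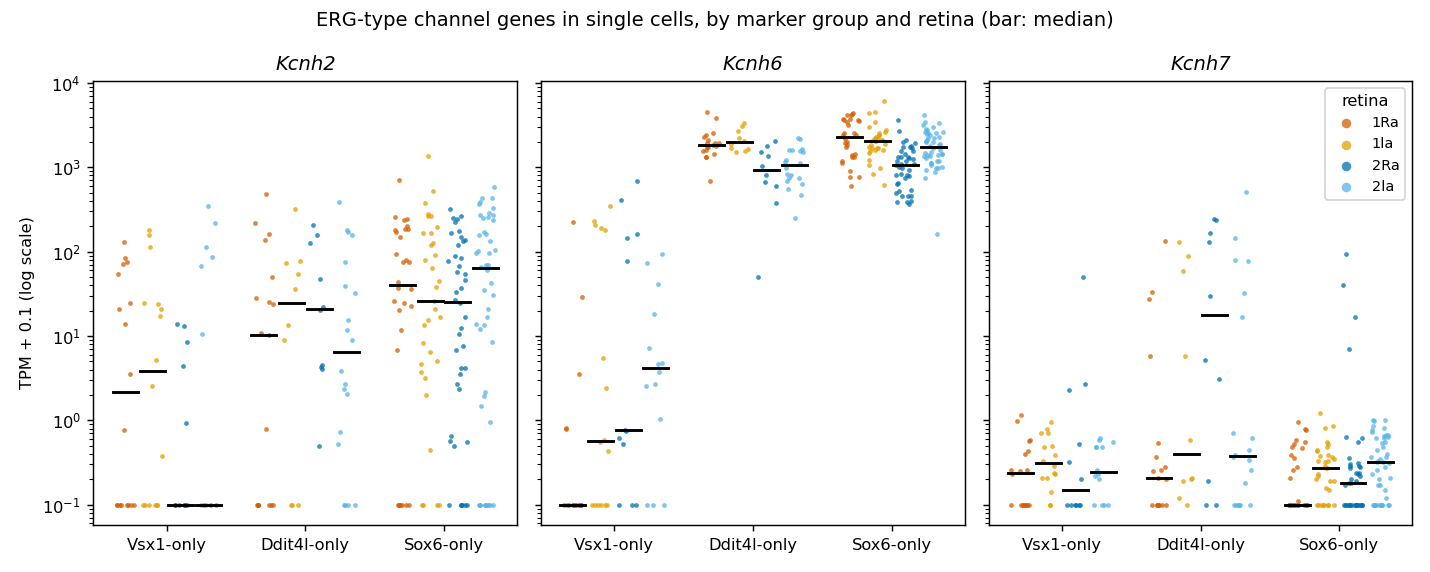
TPM plus 0.1 on a log axis for Kcnh2, Kcnh6 and Kcnh7 in each cell (point) of the Vsx1-only, Ddit4l-only and Sox6-only groups, coloured by retina, with a bar at each retina's median. All Sox6-only cells are above 100 TPM of Kcnh6, and Kcnh7 divides the Ddit4l-only cells into 17 at 10 TPM or more and 42 below.

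Summed over the cells of a mouse and divided by library size (CPM, with TMM scaling), Kcnh6 averaged 37.3 ± 22.4 CPM in Vsx1-only, 1370 ± 458 CPM in Ddit4l-only and 1727 ± 472 CPM in Sox6-only cells (SD, n = 2 mice each). The fitted log2 fold change was -5.53 for Vsx1-only against Sox6-only cells, with -6.58 in mouse 1 and -4.71 in mouse 2. Vsx1-only against Ddit4l-only cells gave -5.20, with -6.30 in mouse 1 and -4.30 in mouse 2. Per retina, Vsx1-only sums held 10.49 CPM in 1Ra, 28.6 in 1la, 100.4 in 2Ra and 20.3 in 2la, so 2Ra was the high one. Between Ddit4l-only and Sox6-only cells the difference was small, at -0.33, with -0.28 in mouse 1 and -0.41 in mouse 2. Kcnh6 ranked 42nd by mean TPM among all 32813 genes in Ddit4l-only cells and 40th in Sox6-only cells, and first among 94 genes with a Kcn symbol in both, ahead of Kcng4. In Vsx1-only cells it ranked 2901st overall and 5 among the Kcn genes, of which the calcium-activated channel gene Kcnma1, the auxiliary subunit gene Kcnab1 and Kcng4 came first.

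The level of Kcnh6 also differed between the mice. Ddit4l-only cells had a median of 1012 TPM in mouse 2 and 1874 TPM in mouse 1, and Sox6-only cells 1358 TPM in mouse 2 and 2092 TPM in mouse 1. Both retinas of mouse 2 lay below both of mouse 1 in each of these groups. With 2 mice on separate plates this difference cannot be tested, and animal and plate cannot be told apart. Across the 59 Ddit4l-only cells, Kcnh6 TPM had a Spearman rho of -0.56 with the number of genes detected, and across the 151 Sox6-only cells -0.25. Those cells share retina, plate and depth, and the median number of genes in Ddit4l-only cells was highest in 2la, at 7107.

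The 10 Vsx1-only cells with Kcnh6 at 100 TPM or more came from 1Ra (1 cell), 1la (5) and 2Ra (4). Their Vsx1 had a median of 207 TPM, against 288 TPM in the other 50, and their Sox6 and Ddit4l reached at most 1.27 and 1.06 TPM. Igfn1, a gene of the immunoglobulin family that was high in this group, had a median of 120 TPM in these 10 cells and 352 TPM in the other 50. Within the 10, Igfn1 was 0 TPM in the cells with summed rod markers at 24681, 4872, 71.2 and 682 TPM. Among the other 50, Igfn1 was 0 TPM in those with rod markers at 7183 and 223 TPM. The summed rod markers had a median of 4934 TPM in the 10 cells and 253 TPM in the other 50. Of the 19 Vsx1-only cells with rod markers at 1000 TPM or more, 7 had Kcnh6 at 100 TPM or more, against 3 of the 41 below that level. Without the cells high in rod markers, the log2 fold change of Kcnh6 was -7.14 for Vsx1-only against Sox6-only cells and -6.85 for Vsx1-only against Ddit4l-only cells. In retina 2Ra the Vsx1-only median of the rod markers was 2693 TPM, and without this retina the values were -6.47 and -6.05. The part of rod transcripts in these Kcnh6 values was not tested.

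**Figure D2:**
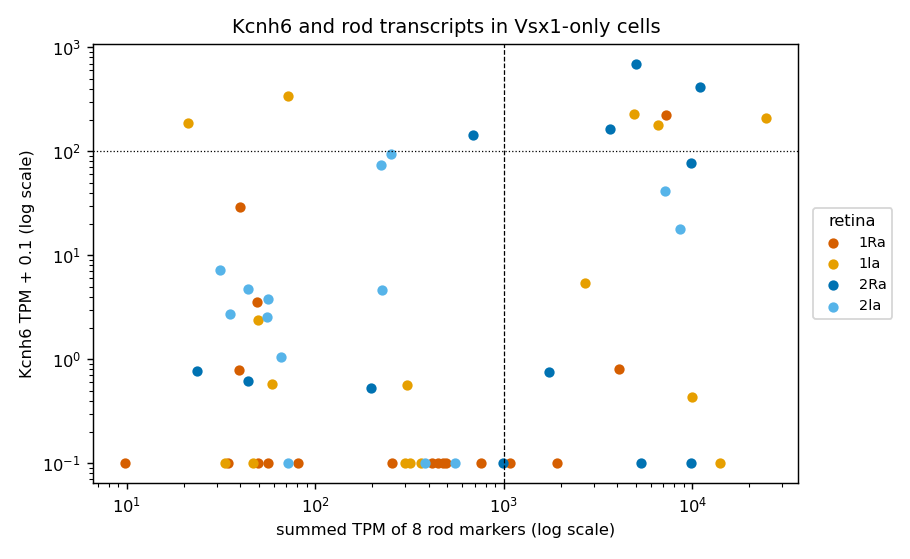
Kcnh6 TPM plus 0.1 against the summed TPM of 8 rod markers in the 60 Vsx1-only cells, both on log axes, coloured by retina, with lines at 100 TPM of Kcnh6 and 1000 TPM of rod markers. Of the 10 cells above the Kcnh6 line, 7 lie to the right of the rod line.

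Kcnh2 varied widely from cell to cell in all 3 groups. It was far below Kcnh6 in Ddit4l-only and Sox6-only cells. In Vsx1-only cells, where both were low, mean Kcnh2 was 31.8 TPM against 52.7 TPM of Kcnh6. In Vsx1-only cells its level was 0 TPM at the lowest, 0.47 at the median and 351 at the highest. Ddit4l-only cells ranged from 0 TPM through a median of 10.7 to 482 TPM, and Sox6-only cells from 0 TPM through a median of 36.5 to 1361 TPM. The ranges overlapped throughout, and cells without a single Kcnh2 count occurred in each group. At 10 TPM or more it was found in 23 of 60 Vsx1-only cells (38.3%, 26.1% to 51.8%), 31 of 59 Ddit4l-only cells (52.5%, 39.1% to 65.7%) and 100 of 151 Sox6-only cells (66.2%, 58.1% to 73.7%). It reached 100 TPM in 7 Vsx1-only, 12 Ddit4l-only and 50 Sox6-only cells. The share with at least 1 count was 51.7%, 74.6% and 82.8% in the same groups, and after thinning every cell to 300000 counts it was 42.4%, 64.4% and 78.8%, with 1 Vsx1-only cell left out for its depth.

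Mean Kcnh2 in Vsx1-only cells was 26.6 TPM in 1Ra, 33.8 in 1la, 3.37 in 2Ra and 60.6 in 2la. In Ddit4l-only cells it was 60.3 TPM in 1Ra, 58.2 in 1la, 59.7 in 2Ra and 54.7 in 2la. Sox6-only cells had means of 103 TPM in 1Ra, 130 in 1la, 67.9 in 2Ra and 122 in 2la. The Sox6-only mean was the highest of the groups in all 4 retinas, and the Ddit4l-only means were almost level. The Vsx1-only mean was above that of Ddit4l-only cells in 2la and below it in the other retinas. As CPM per mouse, Kcnh2 averaged 39.3 ± 5.54 in Vsx1-only, 74.9 ± 7.98 in Ddit4l-only and 142 ± 22.2 in Sox6-only cells (SD, n = 2 mice each).

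A gene was called where edgeR's quasi-likelihood test gave a Benjamini-Hochberg adjusted p under 0.05 and the log2 fold change was 1 or more in size. Under this rule 0 of 16646 genes (0%) were called for Vsx1-only against Sox6-only cells, although 1429 had an unadjusted p under 0.05 and DESeq2 called 976 of the 23993 genes it was run on (4.07%). For Ddit4l-only against Sox6-only cells it called 0 (0%), with 1342 at an unadjusted p under 0.05 and 868 of 23993 (3.62%) called by DESeq2. For Vsx1-only against Ddit4l-only cells it called 7 genes of 16646 (0.0421%), all lower in Vsx1-only cells and 1 of them Ddit4l, which defined the group. DESeq2 called 1763 of 23993 (7.35%). Neither Kcnh2 nor Kcnh7 was among the calls of edgeR. The log2 fold change of Kcnh2 was -1.85 ± 0.25 (SE) for Vsx1-only against Sox6-only cells, with an adjusted p of 0.231 in edgeR and lower values in all 4 retinas. DESeq2 gave -1.81 with an adjusted p of 1.27e-06. Ddit4l-only against Sox6-only cells gave -0.92 ± 0.24 (SE) with an adjusted p of 0.520 in edgeR, and Vsx1-only against Ddit4l-only cells -0.93 ± 0.24 (SE) with an adjusted p of 0.278, each with lower CPM in all 4 retinas. For the last of these DESeq2 gave an adjusted p of 0.0307 at a fold change of -0.94, under the size asked for. Without 2la, the retina with the high Vsx1-only value, the fold changes of Vsx1-only cells were -2.77 against Sox6-only and -2.24 against Ddit4l-only cells, and without 2Ra, the low one, -1.59 and -0.52.

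Kcnh7 was close to 0 in most cells, and a clear signal was found mainly in a subset of Ddit4l-only cells. In Vsx1-only cells it ranged from 0 TPM through a median of 0.145 to 49.8 TPM, in Ddit4l-only cells from 0 through 0.24 to 514 TPM, and in Sox6-only cells from 0 through 0.13 to 93.7 TPM. At 10 TPM or more it was found in 1 of 60 Vsx1-only cells (1.67%, 0.0422% to 8.94%), 17 of 59 Ddit4l-only cells (28.8%, 17.8% to 42.1%) and 3 of 151 Sox6-only cells (1.99%, 0.412% to 5.70%). The medians of the 3 groups were almost the same, so the difference lies in the upper part of the Ddit4l-only group. The 17 Ddit4l-only cells were spread over all retinas, with 3 in 1Ra, 3 in 1la, 5 in 2Ra and 6 in 2la. The 1 Vsx1-only and the 3 Sox6-only cells all came from 2Ra.

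Mean Kcnh7 in Vsx1-only cells was 0.229 TPM in 1Ra, 0.299 in 1la, 4.62 in 2Ra and 0.223 in 2la. In Ddit4l-only cells it was 10.54 TPM in 1Ra, 28.3 in 1la, 82.05 in 2Ra and 43.3 in 2la. Sox6-only cells had means of 0.178 TPM in 1Ra, 0.226 in 1la, 3.84 in 2Ra and 0.287 in 2la. Ddit4l-only cells had the highest mean of the groups in each retina, and 2Ra had the highest mean of the retinas in each group. In Vsx1-only cells the 2Ra mean was carried by 1 cell at 49.8 TPM, and its median, 0.05 TPM, was the lowest of the 4 retinas. As CPM per mouse, Kcnh7 averaged 4.304 ± 3.17 in Vsx1-only, 74.7 ± 47.3 in Ddit4l-only and 3.55 ± 2.55 in Sox6-only cells (SD, n = 2 mice each).

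The log2 fold change of Kcnh7 for Ddit4l-only against Sox6-only cells was 4.45 ± 0.49 (SE), higher in all 4 retinas, with an adjusted p of 0.263 in edgeR over mouse sums. For Vsx1-only against Ddit4l-only cells it was -4.18 ± 0.48 (SE), lower in all 4 retinas, with an adjusted p of 0.119 in edgeR. Summing per retina instead, with the retina as a block, edgeR called both differences, at 4.66 with an adjusted p of 0.00446 where 0.402% of genes were called, and at -4.44 with an adjusted p of 0.00200 where 1.76% were called. Retinas of 1 mouse are not independent, so these p-values are too small. DESeq2 on mouse sums called both as well, with adjusted p-values of 1.34e-21 and 1.19e-18. Between Vsx1-only and Sox6-only cells Kcnh7 gave 0.26 ± 0.43 (SE) with an adjusted p of 0.964 in edgeR, and the sign turned to -0.47 without the cells high in rod markers.

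**Figure D3:**
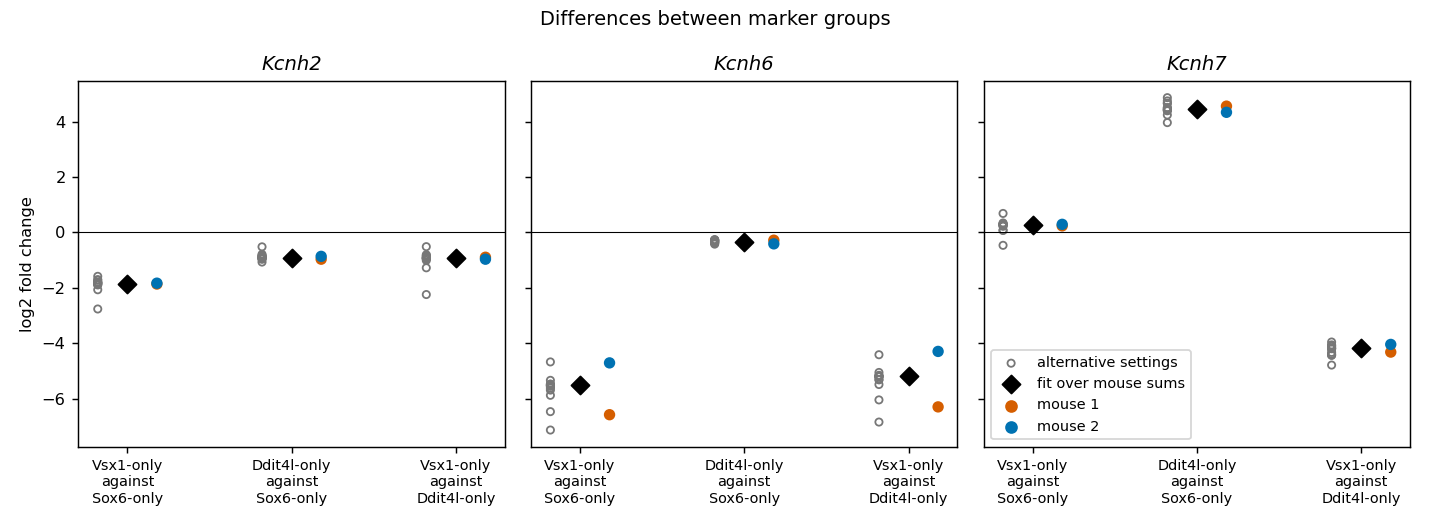
Log2 fold changes of Kcnh2, Kcnh6 and Kcnh7 in the 3 comparisons of marker groups, from the fit over mouse sums (diamond), each alternative setting (open circles) and each mouse (filled circles). Kcnh6 lies at -0.33 between Ddit4l-only and Sox6-only cells and below -4 in the others, and Kcnh7 lies at 4.45 and -4.18 where Ddit4l-only cells enter and at 0.26 where they do not.

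The TPM given for a read of Kcnh7 differed between low and high counts. Of 174 cells of the groups with a count of Kcnh7, 134 had 1 to 5 counts. In these 134 cells 1 CPM of Kcnh7 was worth a median of 0.116 TPM, and in the 16 cells with 100 counts or more it was worth 0.519 TPM. TPM divides by the length of the transcripts to which reads are assigned, and which transcripts these were was not tested. For Kcnh2 the medians were 0.706 TPM per CPM at 1 to 5 counts and 0.694 at 100 or more. Kcnh6 also shifted, with 0.596 TPM per CPM in the 19 cells with 1 to 5 counts, 1.98 in the 9 cells with 20 to 99 and 1.13 in the 217 cells with 100 or more, so its low TPM values are not on quite the same scale as its high ones. The share of cells with at least 1 count of Kcnh7 was 65% in Vsx1-only, 69.5% in Ddit4l-only and 62.3% in Sox6-only cells, and after thinning 40.7%, 45.8% and 34.4%. At 1 TPM or more the shares were 6.67%, 35.6% and 3.31%. At 5 counts or more they were 16.7%, 37.3% and 13.2%. Ddit4l-only cells thus stood apart at these stricter limits and lay close to the others at 1 count.

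The 17 Ddit4l-only cells with Kcnh7 at 10 TPM or more were set beside the other 42 as a description, with genes picked after the values were seen. Their median Kcnh6 was 1125 TPM, against 1699 TPM in the 42, and their median Ddit4l 230 TPM, against 401 TPM. Htr3a, a serotonin receptor subunit, reached 10 TPM in 9 of the 17 cells and 11 of the 42. Kirrel3, an adhesion protein, was so in 17 of 17 and 38 of 42, with medians of 487 and 321 TPM. Median totals were 1100803 and 1067704 counts, a small difference in depth.

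As a family, the channel genes summed to a mean of 85.6 TPM in Vsx1-only, 1671 TPM in Ddit4l-only and 1959 TPM in Sox6-only cells. Kcnh6 made up 61.6%, 94.3% and 94.6% of these sums, Kcnh2 37.1%, 3.47% and 5.34%, and Kcnh7 1.31%, 2.20% and 0.0634%. These shares rest on TPM, whose value per read differed between low and high counts for Kcnh6 and Kcnh7. In CPM per mouse, which does not divide by length, Kcnh7 averaged 74.7 and Kcnh2 74.9 in Ddit4l-only cells. In Ddit4l-only and Sox6-only cells Kcnh6 made up most of the sum in all retinas, between 87.9% and 96.6%. The Kcnh7 share differed between retinas. In Ddit4l-only cells it was 0.502% in 1Ra, 1.25% in 1la, 7.01% in 2Ra and 3.54% in 2la. In Vsx1-only cells the leading gene also differed, since the Kcnh2 share was 64.6% in 1Ra, 31.8% in 1la, 2.54% in 2Ra and 76.8% in 2la of a small total.

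Cell by cell, 25 of the 60 Vsx1-only cells (41.7%) had none of the 3 genes at 10 TPM or more, 18 had Kcnh2 alone, 11 Kcnh6 alone, 5 Kcnh2 with Kcnh6 and 1 Kcnh7 alone. Every Ddit4l-only cell had Kcnh6 at that level, 20 of them alone, 22 with Kcnh2, 8 with Kcnh7 and 9 with both. Among Sox6-only cells, 51 had Kcnh6 alone, 97 had it with Kcnh2 and 3 with both others. Since every cell of these 2 groups had Kcnh6 at 10 TPM or more, its presence beside Kcnh7 says nothing about the pair. Across the Ddit4l-only cells the Spearman rho of Kcnh6 with Kcnh7 TPM was -0.28.

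**Figure D4:**
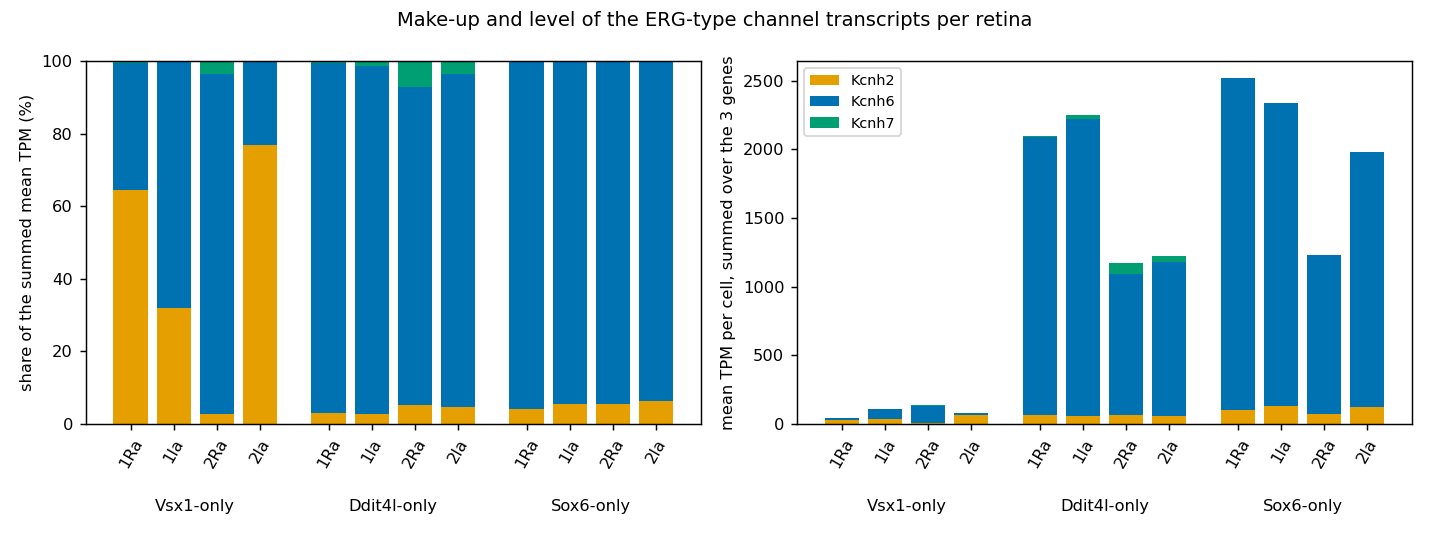
Left, the share of Kcnh2, Kcnh6 and Kcnh7 in their summed mean TPM for each marker group and retina, and right, the summed mean TPM itself, both from 0. Ddit4l-only and Sox6-only bars are almost all Kcnh6 and exceed 1000 TPM in each retina, and Vsx1-only bars stay at or below 133 TPM.

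Over all 3 groups at once, Ra retinas were compared with la retinas in 12 sums of retina and group, with the mouse and the group as further terms. Sums of 1 retina share that retina, so the p-values are too small. The log2 fold change was -0.43 ± 0.45 (SE) for Kcnh2, 0.25 ± 0.51 for Kcnh6 and 0.87 ± 0.58 for Kcnh7, with adjusted p-values of 0.807, 0.918 and 0.658 in edgeR. None of the 3 was called, while 66 of 15290 genes (0.432%) were, 58 of them higher and 8 lower in Ra. The mitochondrial share of counts had a median of 4.85% in 2Ra and 2.14% in 2la, and of 4.15% in 1Ra and 2.05% in 1la. The sign of Kcnh6 turned to -0.11 without the cells high in rod markers and to -0.31 in Sox6-only sums alone.

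Other genes whose products belong to the same channel superfamily or bind ERG subunits were followed as lists. Of the 5 further Kcnh genes (EAG and ELK channels), 2 had enough counts to be tested and 0 were called between groups in edgeR. Of all 16646 genes 0%, 0% and 0.0421% were called in Vsx1-only against Sox6-only, Ddit4l-only against Sox6-only and Vsx1-only against Ddit4l-only cells. At such shares, 0 calls in a list says nothing about its genes. Kcnh5, an EAG channel, reached 11.995 and 29.9 CPM in Vsx1-only sums of mouse 1 and mouse 2, 0 and 0.694 CPM in Ddit4l-only sums, and 8.12 and 19.3 CPM in Sox6-only sums. Kcnh5 reached 10 TPM in 6 of 60 Vsx1-only, 0 of 59 Ddit4l-only and 11 of 151 Sox6-only cells. Vsx1-only against Ddit4l-only cells gave a log2 fold change of 6.64 ± 1.66 (SE) with an adjusted p of 0.262, and Ddit4l-only against Sox6-only cells -6.06 ± 1.62 (SE) with an adjusted p of 0.520. Its counts came from few cells, and both fold changes are set against a group with a sum of 0 CPM in mouse 1. Kcnh1, another EAG channel and the other gene tested, stayed at or below 6.11 CPM in every sum.

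KCNE proteins are single-pass subunits that modify the gating of potassium channels, ERG1 among them. Of 6 KCNE symbols searched, 2 could be tested and 0 were called between marker groups, where at most 0.0421% of all genes were called. Kcne2 reached 1.63 and 16.97 CPM in Vsx1-only sums of mouse 1 and mouse 2, 3.10 and 0.0555 CPM in Ddit4l-only sums, and 3.61 and 21.99 CPM in Sox6-only sums. Kcne2 reached 10 TPM in 3 Vsx1-only, 1 Ddit4l-only and 6 Sox6-only cells, so no KCNE gene was found at a level near that of Kcnh6.

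Of 25 genes listed for chaperones, ubiquitin ligases and trafficking proteins of ERG channels, 24 were tested. Between marker groups 0 of them were called, where at most 0.0421% of all genes were called. Their median log2 fold change was -0.07 for Vsx1-only against Sox6-only, 0.02 for Ddit4l-only against Sox6-only and -0.05 for Vsx1-only against Ddit4l-only cells. The medians over all genes were -0.05, -0.08 and 0.01. Hspa8, a heat shock cognate chaperone named after its values were seen, had 4246 and 3762 CPM in Vsx1-only sums of mouse 1 and mouse 2, 5200 and 3639 CPM in Ddit4l-only sums, and 4326 and 4325 CPM in Sox6-only sums. Unadjusted p-values under 0.05 in edgeR numbered 3, 0 and 3 in these comparisons. Over all 16646 genes they numbered 1429, 1342 and 2141. Between Ra and la retinas 1 of the 24 was called, where 0.432% of all genes were called. It was Rab11a, a small GTPase of recycling endosomes, at 1.22 ± 0.21 (SE) with an adjusted p of 0.0350 in edgeR. An unadjusted p under 0.05 was found for 8 of the 24 and for 1599 of all 15290 genes. In Sox6-only retina sums alone 0 of 15745 genes were called in edgeR, with 963 at an unadjusted p under 0.05. Rab11a was named after its values were seen.

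The genes most like the channel genes were ranked by Pearson r of log2(TPM + 1) across the 321 cells, among 9576 genes with a count in at least 25% of them. Kcnh6 was most like Lhx4 (r 0.87), a LIM homeobox factor of the retina, Nfia (0.84), a nuclear factor I protein, the calcium-binding protein gene Cabp5 (0.83), the ephrin receptor gene Epha7 (0.80) and Hpca (0.72), which encodes hippocalcin. It was least like Sec1 (-0.78), Igfn1 (-0.77) and the calcium-binding protein gene Cabp2 (-0.73). Median Lhx4 was 0 TPM in Vsx1-only, 423 TPM in Ddit4l-only and 356 TPM in Sox6-only cells, and median Igfn1 325, 0 and 0 TPM. These coefficients follow the split between the groups and share plate and depth. Within the 151 Sox6-only cells the highest values were 0.50 for Ckb and 0.49 for both Gapdh and Pkm, genes of energy metabolism. Within the 59 Ddit4l-only cells they were 0.67 for Gsg1, 0.62 for Neurod4, a basic helix-loop-helix factor, and 0.58 for Cabp5. On log2 scales, the r of Kcnh6 with the number of genes detected was -0.60 in Ddit4l-only and -0.30 in Sox6-only cells. Cells within a group also share retina, plate and depth.

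**Figure D5:**
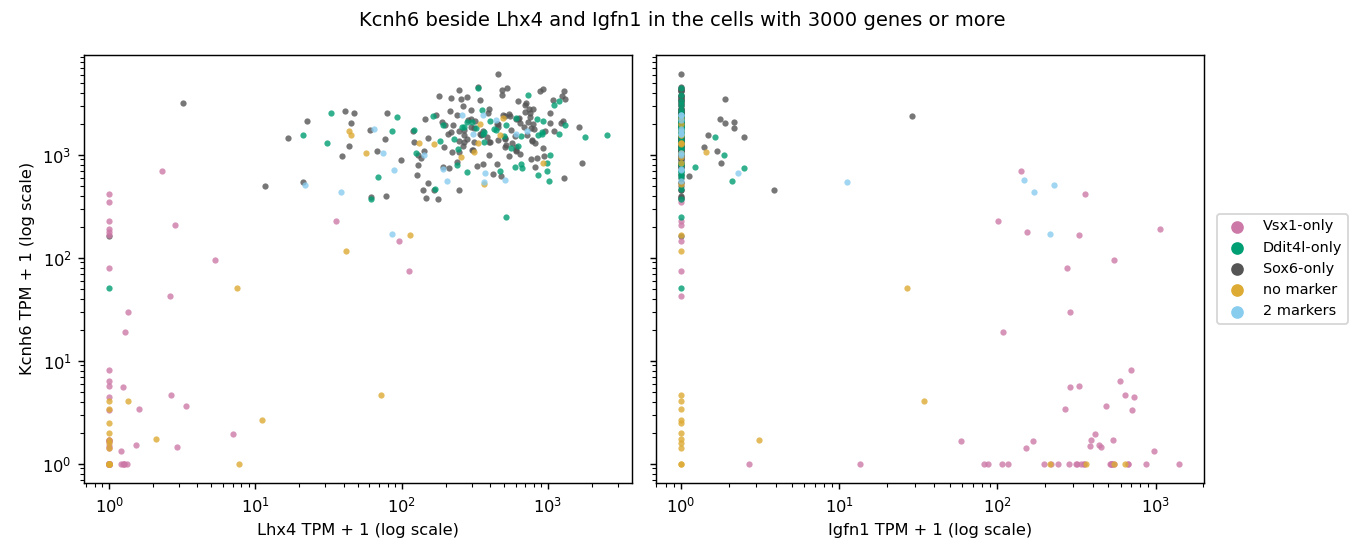
Kcnh6 TPM plus 1 against Lhx4 TPM plus 1 (left) and Igfn1 TPM plus 1 (right) in 321 cells, all on log axes, coloured by marker group, with cells of no marker or 2 markers shown as well. Most Ddit4l-only and Sox6-only cells lie high in both Kcnh6 and Lhx4, while of the 10 Vsx1-only cells with 100 TPM of Kcnh6 or more, 2 reached 10 TPM of Lhx4.

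Across all cells no gene was close to Kcnh2. Its highest r was 0.30 for both Hmcn2 and Hpca, then 0.28 for both the exchanger gene Slc24a2 and Thrsp, and 0.27 for Sox6. Its lowest were -0.29 for both Plch2 and Cabp2 and -0.24 for Igf1. With Kcnh6 the r of Kcnh2 was 0.22 and with Kcnh7 0.03. Within Sox6-only cells no gene exceeded 0.29 with Kcnh2, with Ttyh1 and Gabrr2 at 0.29 and Lrp8 at 0.28. Within the 59 Ddit4l-only cells the highest were 0.46 for Cd300lg, 0.45 for Cyld and 0.43 for Zbtb8b. Median levels of these genes in Ddit4l-only cells were low, at 0 TPM for Cd300lg and 0.5 TPM for Cyld. They are the top values of 9666 genes in 59 cells, and the Sox6-only values those of 9326 genes in 151 cells. The highest r tends to be larger with fewer cells, so it does not show a closer relation in Ddit4l-only cells. For Kcnh7 the highest values were 0.45 for Kirrel3, 0.38 for Gsg1 and 0.37 for both Ddit4l and the receptor phosphatase gene Ptpro, then 0.36 for Lrrtm1, and none of these 5 stayed among the first 5 with Spearman's rho. Its lowest were -0.38 for the glutamate receptor gene Grm6, -0.35 for Gm12660 and -0.34 for Kcnma1.

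Kcng4, the gene behind the sort, encodes a modifier subunit of Kv2 channels. Its median was 38.5 TPM in Vsx1-only, 252 TPM in Ddit4l-only and 213 TPM in Sox6-only cells. The log2 fold change of Vsx1-only against Sox6-only cells was -1.76 ± 0.19 (SE) with an adjusted p of 0.158 in edgeR.

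Close to the limits of the grouping, 5 cells with Sox6 from 10 to under 20 TPM had Kcnh6 between 1.68 and 1699 TPM with a median of 1290, and 2 cells with Sox6 from 20 to under 30 TPM had 383 and 798 TPM. Cells with Vsx1 from 10 to under 20 TPM numbered 2 and had 0 and 3.64 TPM, and 2 with Ddit4l in that range had 49.7 and 1570 TPM (the first is not the lowest Ddit4l-only cell, though the values match), while no Vsx1-only or Ddit4l-only cell had its marker from 20 to under 30 TPM (cells with 2 markers were not counted here). Within 500 genes of the gene minimum, 2 cells below it had 771 and 1195 TPM of Kcnh6, and 1 above it had 0 TPM. Kcnh2 in all these cells stayed at or below 142 TPM and Kcnh7 at or below 9.04 TPM.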

How the data were processed

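Single sorted cells of 4 mouse retinas were sequenced single-end with Smart-seq2, and the cells were assigned to retinas by their labels. The authors deposited RSEM expected counts and TPM per gene and cell; TopHat2 2.0.10, RSEM 1.2.28 and build mm10 are named in the submitters' processing notes, and the annotation is not given in the sources used here. The deposited TPM values were used as they stand. The deposited expected counts were rounded to whole numbers in each cell and then summed per mouse and marker group (6 sums) or per retina and marker group (12 sums).

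The sums were fitted over all genes that passed edgeR's filter on low counts, with edgeR 4.0.16 (TMM, quasi-likelihood test, limma 3.58.1, R 4.3.3), the mouse as a block and Benjamini-Hochberg adjustment. DESeq2 1.42.0 was an alternative. The mouse is the block because sums with the same number come from 1 animal per the labels; their deviations correlated at only 0.023 to 0.074. The fits were tested on simulated data. Levels and likeness were computed with Python 3.11.15. Intervals for shares are Clopper-Pearson at 95% over cells and cover counting error only. They treat cells as independent and leave out the spread between mice, retinas and plates. Reads carry no molecular identifiers. The precision of group differences is limited by the 2 mice.

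The 3 channel genes and all gene lists were chosen with earlier results of these data known. Genes named are the 3 channels, the group markers, Kcng4, list members called between groups, EAG, ELK or KCNE members at 10 CPM or more in a group, and for each channel the 5 genes most and 3 least like it over all cells and the 3 most like it within Sox6-only cells, given here where they add to the account. Kcnh1, Hspa8 and Rab11a, and the genes set beside splits of a group, fall outside this rule and were chosen after their values were seen. Likeness within Ddit4l-only cells, shares at 10 and 100 TPM, splits of a group by a channel's level or by rod markers, and TPM per count were added after the data were seen. Protein sequences were not used here.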

Additional observations from a re-analysis of the deposited data

Results flagged for a closer look

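Of 18 sets of 4 retinas examined for 1 value far from the others, 4 held one. The rule flags about 1 in 20 sets of independent, normally spread values. These sets hold the median and the mean of the same cells, with skewed values, so the 4 cannot be set against that rate. Kcnh6 in Vsx1-only cells had a median of 4.095 TPM in 2la, against 0 to 0.66 TPM in the other retinas. The other cases were all Kcnh7 in 2Ra. Its mean in Vsx1-only cells was 4.615 TPM there, carried by 1 cell at 49.8 TPM, and 0.223 to 0.299 TPM elsewhere. Its median in the 10 Ddit4l-only cells of 2Ra was 17.535 TPM against 0.11 to 0.3 TPM. That median is the middle of a gap between cells at 5.12 and 29.95 TPM. Its mean in Sox6-only cells was 3.84 TPM against 0.178 to 0.287 TPM, carried by cells at 16.5, 40.5 and 93.7 TPM among 42.

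Kcnh6 was also found in wells outside the groups. It reached 100 TPM in 45.5% of the 33 cells with no marker (95% Clopper-Pearson interval 28.1% to 63.6%), in 100% of the 18 cells with 2 markers (81.5% to 100%) and in 24.2% of the 62 wells under the gene minimum (14.2% to 36.7%).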

How the results depend on the processing

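Of 93 differences recomputed under alternative settings 3 changed sign, and of 36 recomputed without 1 retina 0 did. Kcnh6 between groups carried no test, and the other differences were not called to begin with, so a call that stayed absent says nothing about stability. DESeq2 gave calls that edgeR on mouse sums did not, at -1.81 for Kcnh2 in Vsx1-only against Sox6-only cells, and for Kcnh7 at 4.50 in Ddit4l-only against Sox6-only and -4.19 in Vsx1-only against Ddit4l-only cells. Retina sums, blocked by retina, called Kcnh7 in the same comparisons, at 4.66 and -4.44. Without the cells high in rod markers, Kcnh6 moved to -7.14 in Vsx1-only against Sox6-only and -6.85 in Vsx1-only against Ddit4l-only cells, Kcnh7 turned to -0.47 in Vsx1-only against Sox6-only cells, and Kcnh6 turned to -0.11 in Ra against la retinas; it was -0.31 there in Sox6-only sums alone. The cause was not tested. With no replicate block, the paired design dropped, Kcnh2 gave -1.85, -0.92 and -0.93 and Kcnh7 0.27, 4.39 and -4.12 in Vsx1-only against Sox6-only, Ddit4l-only against Sox6-only and Vsx1-only against Ddit4l-only cells, with neither called; calls over all genes then numbered 16, 2 and 62, against 0, 0 and 7 with the block. Calls over all genes were 3, 0 and 9 with markers at 5 TPM, 1, 0 and 4 at 50 TPM, 3, 0 and 8 with no filter on low counts, and 0 in each without cells high in rod markers. Leaving out 1 retina, Kcnh2 ranged from -2.77 to -1.59, -1.07 to -0.52 and -2.24 to -0.52 in these comparisons, Kcnh6 from -6.47 to -4.68, -0.42 to -0.26 and -6.05 to -4.42, and Kcnh7 from 0.07 to 0.34, 4.24 to 4.87 and -4.79 to -3.96. With 2 mice, adjusted p-values over mouse sums rest on few residual degrees of freedom.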

Other observations

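The 33 cells with no marker were mixed for Kcnh6, with 17 under 10 TPM, 15 at 100 TPM or more and 10 at 1000 TPM or more. Lhx4 reached 10 TPM in 15 of the 15 cells rich in Kcnh6 and in 2 of the 18 others, with medians of 253 and 0 TPM. Igfn1 reached 10 TPM in 0 of these 15 and 6 of the 18. Both genes were picked by their r with Kcnh6 across 321 cells that include these 33, so this split is no separate support. Median Kcng4 was 99.4 TPM in the 15 and 0 TPM in the 18, and the summed rod markers had medians of 1082 and 148 TPM.

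Cells with 2 markers had Kcnh6 at every pairing. The 10 cells with Sox6 and Ddit4l had a lowest level of 167 TPM, a median of 1591 and a highest of 2437 TPM. The 6 cells with Sox6 and Vsx1 ranged from 432 TPM through 564 to 1044 TPM, and the 2 with Vsx1 and Ddit4l had 547 and 2189 TPM. Whether these wells held more than 1 cell was not tested.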
